A study of Homo sapiens with 3 samples.

Results

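The end of the long arm of human chromosome 8, in band 8q24.3, was examined from 141000000 to 146364022 (hg19). The maps were of histone H3 trimethylated at lysine 36 (H3K36me3). Below, the band means this interval only. The members were all deposited peaks that overlap this interval, taken by position alone, 420 in untreated cells and 514 after dihydrotestosterone (DHT). Together these are 934 of the 249362 peaks on nuclear chromosomes. The interval was divided at 144 Mb into a proximal segment of 3 Mb and a distal segment of 2364022 bp that reaches the chromosome end. Gene density of the distal segment is taken from its working name and was not measured, because no gene annotation of hg19 was used here.

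The cells were LNCaP, an established prostate cancer line that responds to androgen. Chromatin was immunoprecipitated with an anti-H3K36me3 antibody and sequenced in 2 libraries, 1 of untreated cells and 1 of cells given 100 nM DHT for 4 h in RPMI described as red-free. Both were maintained in RPMI with 10% serum, and whether the untreated cells also had the red-free medium is not stated, so medium and hormone cannot be told apart. An input library of untreated cells was not analysed here. With 1 library per condition no p-value can be given. Every interval below is a 95% interval for counting error only, which treats neighbouring peaks as independent and leaves out the spread between cultures. Intervals of ratios also treat the 2 lists as independent, although many places are marked in both.

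H3K36me3 is written over the bodies of transcribed genes by the methyltransferase SETD2, which travels with elongating RNA polymerase II, so long or busy genes carry broad domains of the mark. DHT is the potent androgen that binds the androgen receptor and sends it to its target genes. Gene order was taken from the RefSeq table of GRCh38.p14, used for nothing else. On the centromeric side the genes listed for the interval begin with TRAPPC9 (vesicle trafficking), AGO2 (small-RNA silencing) and PTK2 (focal adhesion kinase). A cluster of Ly6-family surface genes follows, among them PSCA (prostate stem cell antigen), LYNX1 and LY6D, with the adrenal steroid hydroxylase genes CYP11B1 and CYP11B2 beside it. Beyond these lie closely spaced genes such as EEF1D (translation elongation), SCRIB (cell polarity), PUF60 (splicing), PLEC (plectin, a cytoskeletal linker), HSF1 (heat-shock factor), CPSF1 (mRNA cleavage) and RECQL4 (DNA helicase). The order closes with the ribosomal protein gene RPL8 among zinc finger genes, including ZNF7, ZNF250 and ZNF16. Peaks were not assigned to any of these genes, since the builds differ.

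In both libraries the distal segment was covered more densely, by peaks that were about as frequent but wider. Untreated cells had 231 proximal and 189 distal peaks, or 7.70 and 7.99 per 100 kb, and DHT-treated cells had 293 and 221, or 9.77 and 9.35 per 100 kb. Peaks covered 4.81% of the proximal and 9.56% of the distal segment in untreated cells, and 5.53% and 12.7% after DHT. All nuclear chromosomes together were covered at 2.08% and 2.13%. Both segments thus lay above the genome in both libraries, the distal one by more.

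Peak width separated the segments. Median width was 450 bp (quartiles 328.5 and 772 bp) in the proximal and 946 bp (472 and 1615 bp) in the distal segment of untreated cells. After DHT the medians were 377 bp (290 and 610 bp) and 783 bp (383 and 1786 bp). Peaks of at least 2 kb made up 2.60% of untreated peaks in the proximal and 16.4% in the distal segment, and 3.07% and 22.2% after DHT. Over the genome these shares were 2.58% and 2.05%.

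**Figure D1:**
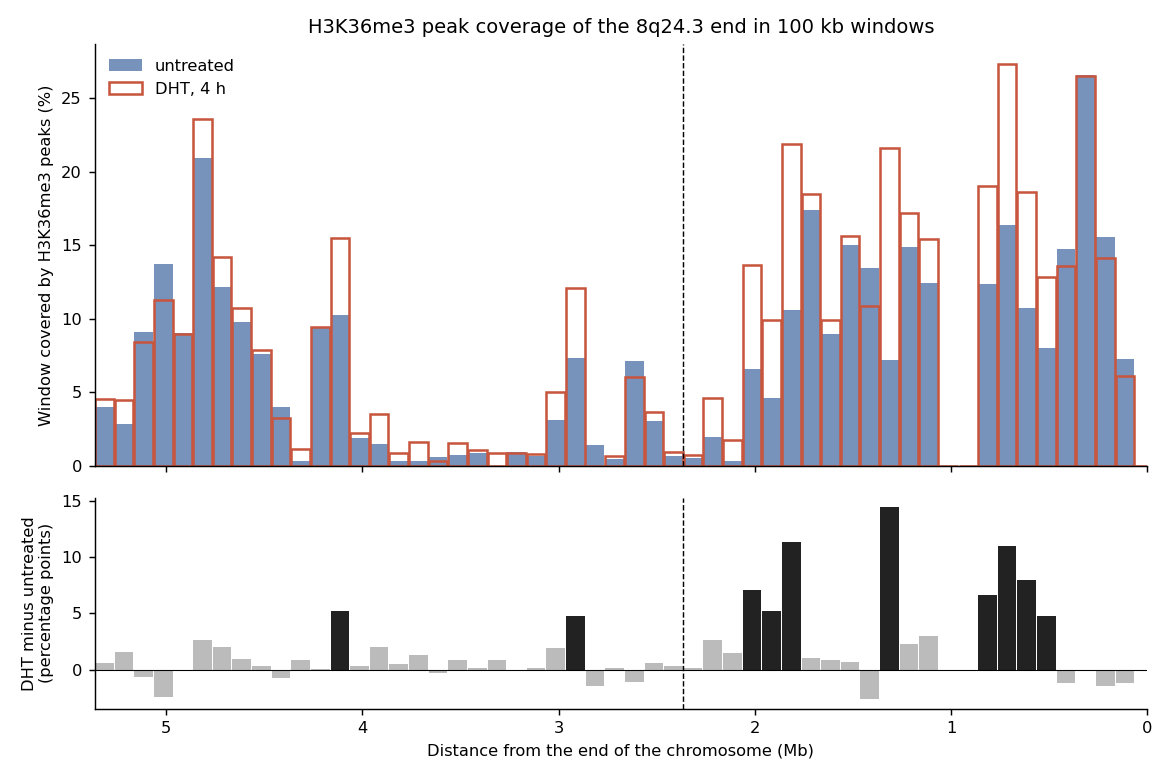
Top, percent of each 100 kb window covered by peaks in untreated cells (filled bars) and after 4 h of DHT (outlined bars), against distance from the chromosome end in Mb; the dashed line is the boundary at 144 Mb. Bottom, DHT minus untreated in percentage points, with the 10 windows at least 1.5-fold higher in black; 8 of them lie to the right of the boundary, in groups of 3, 1 and 4.

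After DHT peaks covered more of the distal segment, and they were also more numerous. Covered length went from 225925 to 300054 bp, 1.33 times as much (interval 1.02 to 1.73), while peak number was 1.17 times as high (0.963 to 1.42). In the proximal segment the order was the other way: covered length went from 144342 to 165918 bp, a ratio of 1.15 (0.910 to 1.45), and peak number was 1.27 times as high (1.07 to 1.51). The distal ratio of covered length was 1.16 times the proximal one, with an interval of 0.812 to 1.64 that includes 1, so this interval did not separate the segments. Over the genome the ratio of covered length was 1.025 (1.014 to 1.037). The distal ratio was 1.30 times that, and this interval (0.995 to 1.69) also reached 1. Leaving out 1 window, from 145000001 to 145100000, lowered the distal ratio to 1.27 (0.972 to 1.67).

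By whole megabases the difference was largest in the next to last stretch, and the last was slightly less covered after DHT. From 141000001 to 142000000, peaks covered 9.33% before treatment and 9.75% after it. From 142000001 to 143000000 it was 2.63% and 3.74%, and from 143000001 to 144000000 it was 2.48% and 3.11%. This middle part was the most sparsely marked of the band in both libraries.

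Coverage was higher again on the distal side. From 144000001 to 145000000 it was 7.96% in untreated cells and 10.8% after DHT, a ratio of 1.35 (0.861 to 2.12). From 145000001 to 146000000 it was 9.69% and 14.6%, a ratio of 1.504 (1.02 to 2.21). The last 364 kb, from 146000001 on, had 13.6% and 12.8%, a ratio of 0.946 (0.525 to 1.70). That interval also includes the ratio of the whole distal segment, 1.33. Only the interval of the megabase from 145000001 left out 1 among these 6 stretches.

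In windows of 100 kb, higher values after DHT were grouped on the distal side. A window qualified when the mean covered length of both libraries was at least 5 kb, and counted as higher or lower at a 1.5-fold difference. Of 54 windows 29 qualified, 11 of 30 proximal and 18 of 24 distal. Of the 18 distal windows 8 were higher after DHT, or 44.4% (24.6% to 66.3%), against 10.4% of the 4832 qualifying windows of the genome. Of the 11 proximal windows 2 were higher, or 18.2% (5.14% to 47.7%), an interval that includes the genome's share. None of the 29 was lower, where 5.96% of the genome's windows were. The median ratio of qualifying windows was 1.20 in the distal segment (range 0.806 to 2.99), 1.04 in the proximal segment (0.824 to 1.64) and 0.999 over the genome. Neighbouring windows share genes and library, so these shares describe the band and are not a test.

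**Figure D2:**
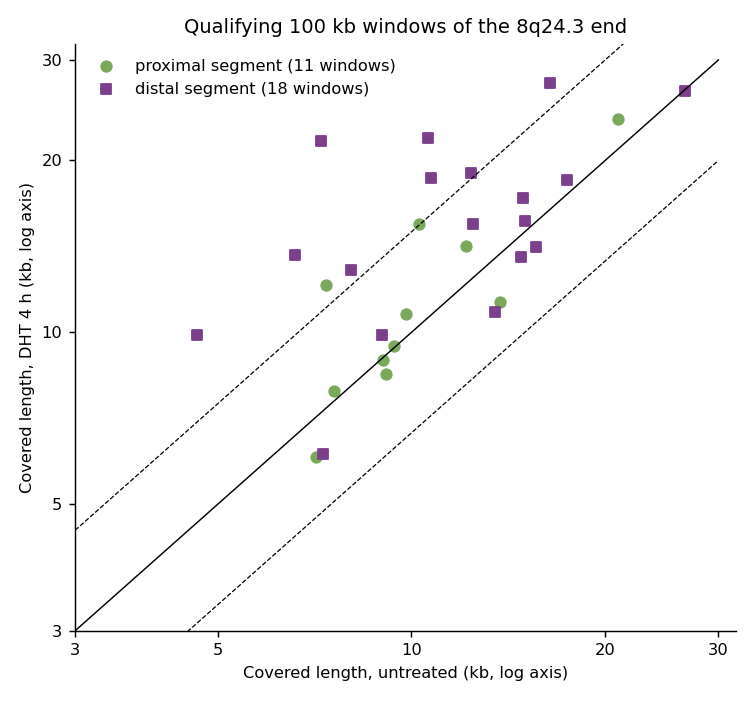
Covered length of the 29 qualifying 100 kb windows in untreated cells (x axis, kb, log axis) and after DHT (y axis, kb, log axis), by segment; the solid line marks equal values and the dashed lines 1.5-fold differences. Points above the upper dashed line are 8 distal and 2 proximal windows, and none lies below the lower one.

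The first group of higher windows spanned 3 neighbouring windows from 144300001 to 144600000. Coverage went from 6.58% to 13.7% in the first window, from 4.64% to 9.90% in the second and from 10.6% to 21.9% in the last. Together they held 21820 bp in 19 untreated peaks and 45505 bp in 28 DHT peaks, a ratio of 2.09 (1.03 to 4.21). All higher windows, here and below, were chosen by their ratio, which set it above 1 in advance. Their intervals are therefore no test of a difference. The window from 144500001 to 144600000 had the 14th largest gain in covered length among the 30940 windows of the genome.

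DHT peaks alone and DHT peaks wider than their untreated partner both occurred in this group. A DHT peak of 4696 bp from 144332260 to 144336955, one of 3165 bp from 144405651 to 144408815 and one of 3703 bp from 144519504 to 144523206 overlapped no untreated peak. Farther on, the untreated peak of 2126 bp from 144544200 to 144546325 lay wholly within a DHT peak of 4844 bp from 144544044 to 144548887. Likewise the untreated peak of 2051 bp from 144458191 to 144460241 lay within a DHT peak of 4213 bp. The reverse also occurred: an untreated peak of 2293 bp from 144338502 to 144340794, scored 188.89, ended 159 bp before a DHT peak and overlapped none.

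The single window from 145000001 to 145100000 had the largest difference in the band. Untreated cells had 10 peaks over 7237 bp and DHT-treated cells 13 peaks over 21651 bp, a ratio of 2.99 (1.0102 to 8.86), and its gain was the 4th largest of the genome's windows. This window too was chosen by its ratio, so the interval is no test of it. The widest untreated peak there was 1705 bp and the widest DHT peak 6735 bp. The latter, from 145006286 to 145013020 with a score of 153.73, was the second widest DHT peak of the band and its nearest untreated peak was 4638 bp away. Just before the window's edge, where the ratio was 0.806, lay an untreated peak of 4929 bp that overlapped no DHT peak. With gaps of up to 5 kb closed in the pooled lists, both lone peaks fell into 1 stretch from 144990557 to 145013020. It held 6634 bp before DHT and 9988 bp with it, a ratio of 1.51, so the window's ratio depends in part on its edge. At the window's start an untreated peak of 1705 bp lay inside a DHT peak of 3253 bp, and at 145065793 one of 1615 bp lay inside a DHT peak of 3741 bp. These peaks at 145065793 had the fourth highest untreated score of the band (596.29) and the second highest DHT score (729.66). The score is the authors' own value for a peak, on a scale that is not stated, and is used here to rank peaks within a list.

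The next group was 4 windows from 145500001 to 145900000, separated from the former by windows with little difference and by an empty stretch. Coverage went from 12.4% to 19.03%, from 16.4% to 27.3%, from 10.7% to 18.6% and from 8.05% to 12.8%, in order toward the chromosome end. Over the group 42 untreated peaks held 47522 bp and 47 DHT peaks 77853 bp, a ratio of 1.64 (0.944 to 2.84). Peaks of at least 2 kb numbered 5 in untreated cells and 15 after DHT. The window from 145600001 to 145700000, at 27.3%, was the most covered of the band after DHT and the 14th most covered window of the genome in that library.

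Several peaks found in both libraries were wider after DHT here. In the window from 145600001 to 145700000, the untreated peak of 3909 bp from 145618930 to 145622838 lay within a DHT peak of 5790 bp. The untreated peak of 4254 bp from 145674980 to 145679233 lay within a DHT peak of 6094 bp. A pair of untreated peaks of 1143 and 963 bp, from 145648351 to 145649493 and from 145649607 to 145650569, were spanned by 1 DHT peak of 3592 bp. All 3 DHT peaks thus held 1 or more whole untreated peaks. A lone DHT peak of 3854 bp, from 145721849 to 145725702, stood 5272 bp from the nearest untreated peak.

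**Figure D3:**
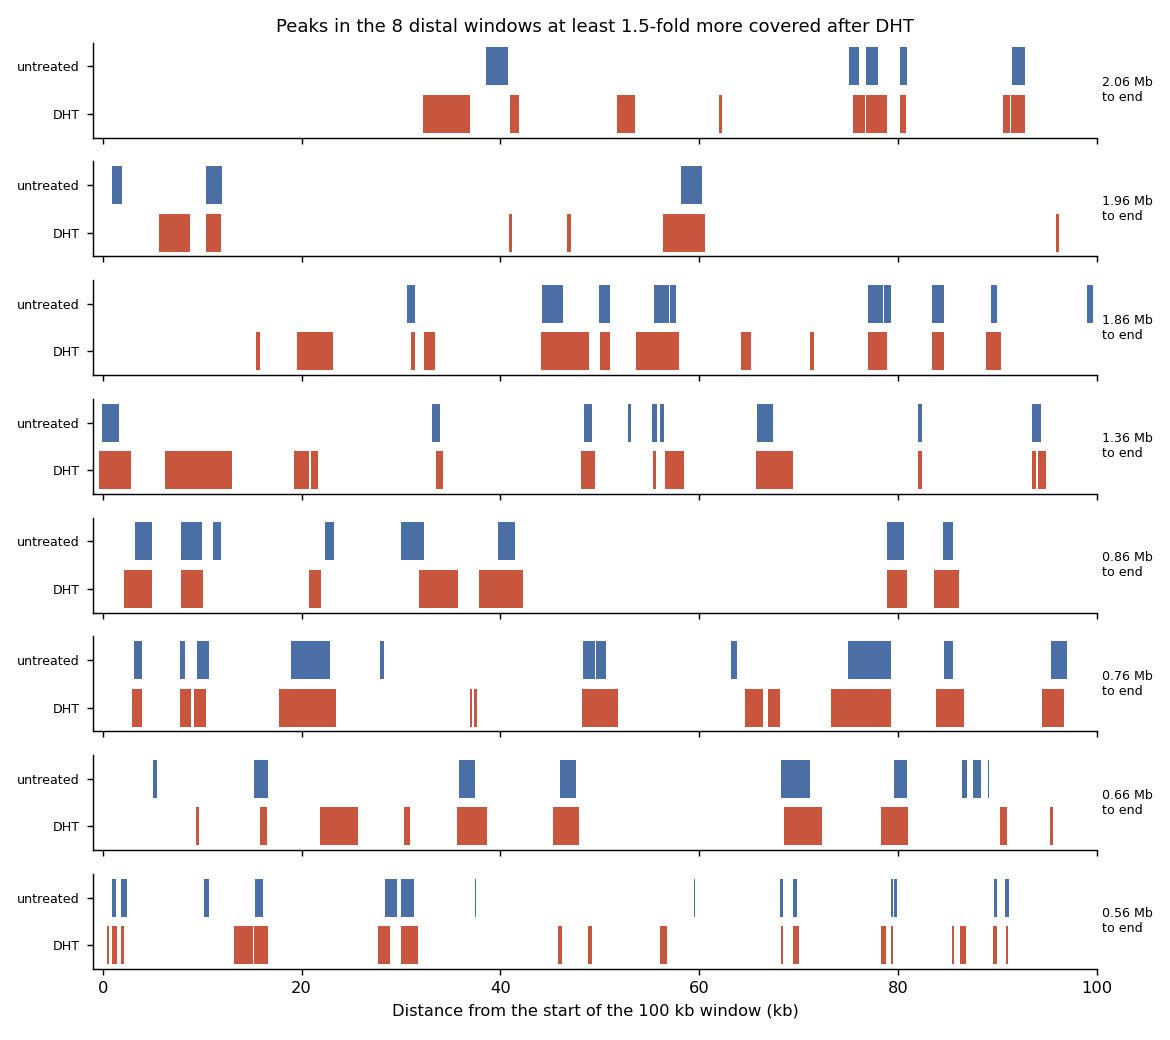
Peaks of each library in the 8 distal windows at least 1.5-fold more covered after DHT, 1 panel per window, against distance from the window's start in kb; the number at the right is the distance from the window's start to the chromosome end in Mb. Many DHT peaks reach beyond the untreated peak at the same place, and wide DHT peaks without an untreated peak are seen in the first 4 panels and in the seventh.

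The 2 higher windows of the proximal segment stood apart from each other. From 142200001 to 142300000, coverage went from 10.3% in 11 peaks to 15.5% in 18 peaks, and from 143400001 to 143500000 it went from 7.36% in 9 peaks to 12.1% in 12 peaks. The ratios were 1.51 (0.590 to 3.86) and 1.64 (0.549 to 4.92). The widest DHT peak of the first was 3754 bp and that of the second 3383 bp, and both overlapped untreated peaks.

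Not all of the distal segment was higher after DHT. The 8 higher windows accounted for 68.43 of the 74.129 kb net difference, or 92.3%, and were chosen by that difference. The other 13 distal windows with peaks held 149346 bp before DHT and 155045 bp with it, a ratio of 1.04. From 144600001 to 144900000 the window ratios were 1.06, 1.10 and 1.04, and from 144900001 to 145000000 the ratio was 0.806. In the 4 windows nearest the chromosome end, from 145900001 to 146300000, the ratios were 0.918, 0.997, 0.906 and 0.842. These windows held 54 untreated peaks over 64233 bp and 63 DHT peaks over 60334 bp, a ratio of 0.939 (0.576 to 1.53). Covered length was thus not higher after DHT in these 4 windows, but they were taken as those beyond the last higher window. Their interval also includes the distal ratio of 1.33, so it did not separate them from the whole segment.

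The most covered windows were partly the same in both libraries. In untreated cells they were the windows starting at 146000001 (26.6%), 141500001 (21.0%), 144600001 (17.4%), 145600001 (16.4%) and 146100001 (15.6%). After DHT they were those starting at 145600001 (27.3%), 146000001 (26.5%), 141500001 (23.6%), 144500001 (21.9%) and 145000001 (21.7%). The window from 146000001 to 146100000 ranked 12th in the genome in untreated cells and 24th after DHT. Windows at least 10% covered numbered 4 proximal and 12 distal in untreated cells and 6 and 15 after DHT.

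A few windows lacked peaks. None was found in either library from 145300001 to 145500000 or from 146300001 to the end, inside or beside densely marked sequence. The hg19 sequence was not used here, so assembly gaps in these windows were not subtracted from any percentage. The window from 143000001 to 143100000 held 893 bp of DHT peaks and no untreated peak, and that from 143500001 to 143600000 held 1407 bp of untreated peaks and no DHT peak.

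The difference in width lay in the widest classes. In the distal segment, peaks of at least 4 kb went from 5, summing to 24.277 kb, to 15, summing to 76.293 kb. Those of 2 to 4 kb went from 26 over 68.328 kb to 34 over 96.45 kb. Summed length of peaks of at least 2 kb was 1.87 times as high after DHT, and that of narrower peaks 0.955 times as high. Over the genome these ratios were 0.931 and 1.04. Genome peaks of at least 4 kb were nevertheless also more numerous after DHT, with 413 over 2037.57 kb before it and 485 over 2430.36 kb with it. Those of 2 to 4 kb were fewer, at 2623 and 2215, as were those of 1 to 2 kb, at 9022 and 7609. At the other chromosome ends described below, the ratio for peaks of at least 2 kb ran from 1.399 (17q) to 2.31 (19p). That for narrower peaks ran from 1.02 (16p) to 1.24 (11p) there.

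Wide peaks held 41.0% of distal peak length in untreated cells and 57.6% after DHT, against 14.0% and 12.7% over the genome. In the proximal segment they held 12.3% and 17.0%, with 6 and 9 peaks of 2 to 4 kb and none wider in either library. Proximal peaks under 1 kb went from 197 to 263, which made up most of the difference in peak number there.

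**Figure D4:**
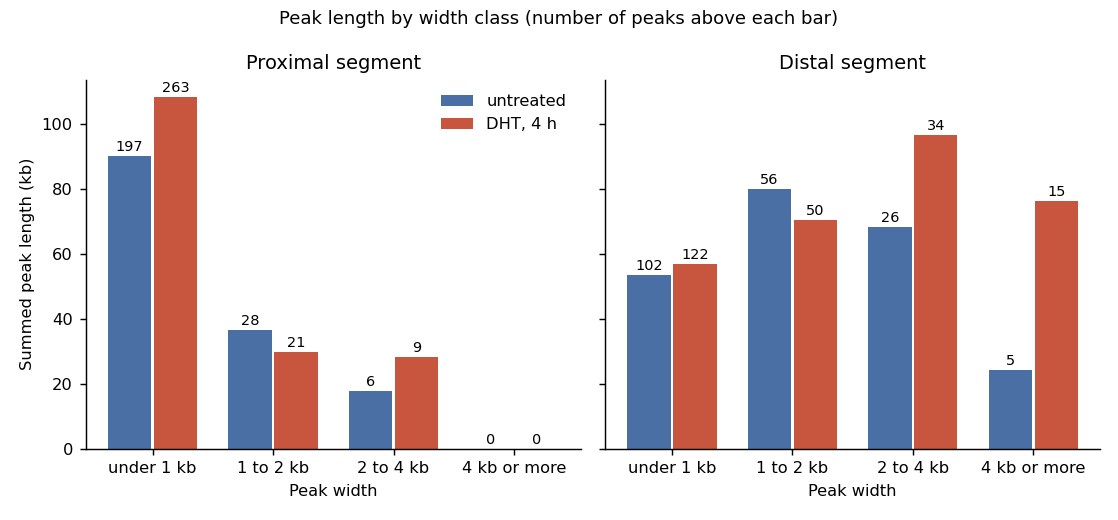
Summed peak length in kb by peak width class, for untreated cells and after DHT, in the proximal segment (left) and the distal segment (right), with the number of peaks above each bar. In the distal segment the bars are 68.3 kb and 96.5 kb at 2 to 4 kb, and 24.277 kb and 76.293 kb at 4 kb or more.

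Distal peaks were also shared more often than proximal ones. A DHT peak overlapped 130 of 189 distal untreated peaks, or 68.8% (61.9% to 74.96%), and 120 of 231 proximal ones, or 51.9% (45.5% to 58.3%). An untreated peak overlapped 58.4% (51.8% to 64.7%) of distal and 42.3% (36.8% to 48.0%) of proximal DHT peaks. The corresponding shares over the genome were 52.3% and 48.5%. At the other chromosome ends they ran from 68.4% (19p) to 71.5% (9q) in untreated cells. After DHT they ran from 53.7% (9q) to 59.6% (16p), so shares like the distal ones were also found at those ends. The intervals of the segments did not overlap in either direction. When at least 50% of a peak had to be covered, the shares of DHT peaks were 48.4% (41.9% to 54.98%) in the distal and 37.9% (32.5% to 43.6%) in the proximal segment, and these intervals overlapped. With gaps closed up to 1 kb, so did those of untreated peaks, at 68.8% (61.1% to 75.6%) and 57.3% (49.96% to 64.3%). Wider peaks meet others more easily, and widths differed between the segments, so the part of width in these shares was not tested.

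Peaks of higher score were shared more often in both segments. Among distal untreated peaks, 50.5% of those up to the median score and 87.2% of those above it were overlapped, and after DHT 36.04% and 80.9%. Proximal shares were 36.2% and 67.8% in untreated cells and 25.2% and 59.6% after DHT. Distal peaks with a counterpart had median scores of 102.635 in untreated cells and 149.68 after DHT, those without 65.19 and 68.7.

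By length, 152872 bp of the distal segment were covered in both libraries, 41.0% of all sequence covered in either, against 30.8% in the proximal segment and 32.5% over the genome. At the other chromosome ends this share ran from 37.3% (19p) to 42.2% (17q). In the distal segment DHT-only sequence came to 147182 bp and untreated-only sequence to 73053 bp. Of the DHT-only sequence, 70025 bp lay in peaks that overlapped an untreated peak and 77157 bp in 92 peaks that did not. For untreated-only sequence these values were 25742 bp and 47311 bp in 59 peaks. Both the unshared parts of overlapped peaks and the lone peaks were thus longer in sum after DHT. Over the genome the unshared parts of overlapped peaks leaned the other way, with 10921375 bp before DHT and 6239646 bp with it. At the other chromosome ends they leaned as in the distal segment. They went from 12739 to 80161 bp at 19p, from 25382 to 73902 bp at 16p and from 15698 to 63139 bp at 11p. At 17q they went from 34041 to 63436 bp and at 9q from 25332 to 59260 bp. This lean was thus not particular to the distal segment.

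The edges can be followed in simple pairs, meaning 1 untreated and 1 DHT peak that overlap each other and no other peak. In the distal segment 108 such pairs were found, and the DHT peak was the wider one in 64, or 59.3% (49.8% to 68.1%). Among proximal pairs it was wider in 39 of 110, or 35.5% (27.1% to 44.7%), and over the genome in 36.5% of 55084 pairs. Median widths of paired distal peaks were 1164 bp before DHT and 1368.5 bp with it, against 557.5 and 440.5 bp in the proximal segment. The DHT peak reached past both edges of its untreated partner in 39 distal pairs (36.1%) and 17 proximal pairs (15.5%), with 15.0% over the genome. The distal share of wider DHT peaks thus lay above the genome's, where the untreated peak was usually wider, and the intervals of the segments did not overlap. The distal interval includes 50%, so it did not separate a lean toward wider DHT peaks from none. Shares at the other chromosome ends, given below, were also above the genome's.

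Lone peaks were not all near a peak of the other library. Of the 92 lone distal DHT peaks, 25 lay within 1 kb of an untreated peak, 25 at 1 to 5 kb and 42, or 45.7%, farther away, against 33.7% of lone DHT peaks over the genome. The 59 lone distal untreated peaks fell into 16, 30 and 13, the last being 22.0%, against 30.9% over the genome. At the other chromosome ends the share of lone DHT peaks beyond 5 kb ran from 23.3% (17q) to 51.2% (19p). For lone untreated peaks it ran from 10.9% (17q) to 33.3% (19p) there. In the proximal segment 59 of 169 lone DHT peaks (34.9%) and 29 of 111 lone untreated peaks (26.1%) lay over 5 kb from the other library's peaks.

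Most wide peaks had a counterpart. Of distal peaks of at least 2 kb, 80.6% (63.7% to 90.8%) in untreated cells and 89.8% (78.2% to 95.6%) after DHT were overlapped. The proximal shares were 83.3% and 88.9%, and those over the genome 91.2% and 76.7%. Lone wide peaks of the distal segment were thus relatively more frequent than over the genome in untreated cells and less frequent after DHT. The overlapped shares at the other chromosome ends after DHT, from 79.6% (16p) to 84.2% (11p), also lay above the genome's 76.7%. Those in untreated cells ran from 74.1% (19p) to 100% (11p), on both sides of the genome's 91.2%. In untreated cells 7 peaks of at least 2 kb overlapped no DHT peak, among them the widest of the band, 5480 bp from 144663895 to 144669374, with a score of 65.81, and a peak of 4929 bp from 144990557 to 144995485, with a score of 50.51. The other 5 were 2203 to 3239 bp wide and began at 141571573, 144338502, 144877673, 144940085 and 145109948. After DHT 6 such peaks were found, 3165 to 6735 bp wide: the 4 lone peaks named in the groups of higher windows, that at 145006286, and a peak of 3670 bp from 141554565 to 141558234. Median scores of lone wide peaks were 65.81 in untreated cells and 136.295 after DHT, against 107.42 and 183.79 for wide peaks with a counterpart. The lowest score in either list was 50, so the untreated peak scored 50.51 lay close to that floor.

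Other widest peaks had partners. In untreated cells these were the peaks of 5329 bp from 146155144 to 146160472, 4285 bp from 146072947 to 146077231 and 4254 bp from 145674980 to 145679233, covered by DHT peaks over 77.2%, 97.9% and 100% of their width. After DHT the widest, 6826 bp from 144898497 to 144905322, was covered by untreated peaks over 33.5%. Those of 6094, 5790 and 5702 bp, beginning at 145673197, 145617684 and 144616482, were covered over 69.8%, 67.5% and 71.6%. Of the 5 widest peaks of each list, 3 of 5 untreated and 4 of 5 DHT peaks therefore had a partner.

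To approach whole domains, the lists were pooled and peaks with gaps of up to 5 kb were merged into blocks. The proximal segment held 21 blocks of at least 10 kb and the distal 26, and all 47 contained peaks of both libraries. Proximal blocks were longer, with a median of 17618 against 13920.5 bp. The longest lay from 141346376 to 141389601 (43226 bp), with 10554 bp covered before DHT and 6806 bp with it. The next were from 141519644 to 141558234, with 9495 and 11043 bp, and from 141608902 to 141644222, with 3738 and 7196 bp. Those from 141741691 to 141773103, with 4496 and 4057 bp, and from 146046260 to 146077231, with 11956 and 13691 bp, completed the 5 longest. Of these 5, 3 had more covered sequence after DHT and 2 less.

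Few of these blocks differed by 2-fold or more. With a mean of at least 2 kb covered, 16 proximal and 25 distal blocks qualified. In each segment 2 were higher after DHT, against 5.56% of the genome's 6489 qualifying blocks. The distal ones lay from 145721849 to 145738662, with 1589 bp before DHT and 7463 bp with it, and from 145530035 to 145542299, with 4015 and 8404 bp. The proximal ones lay from 141587624 to 141602449, with 2721 and 5896 bp, and from 141210982 to 141232397, with 1487 and 3010 bp. A single proximal block was lower, from 141882159 to 141902417, with 2987 and 1146 bp, where 3.08% of the genome's blocks were lower. Median ratios were 1.17 in the proximal and 1.15 in the distal blocks.

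At matched scores the DHT list had more peaks in both segments, as far as the score scales of the lists match. At scores of at least 100, distal peaks numbered 77 in untreated cells and 114 after DHT (ratio 1.48), and proximal peaks 62 and 96 (1.55). The genome's ratio at that score was 1.26. At scores of at least 200 the distal numbers were 20 and 40 and the proximal 12 and 20, with a genome ratio of 1.42. At scores of at least 300 the distal numbers were 14 and 20, a ratio of 1.43 that lay below the genome's 1.58, and the proximal numbers were 1 and 8.

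Other chromosome ends were measured over stretches as long as the distal segment, counted from position 1 on short arms and from the last peak on long arms. Ratios of covered length after DHT were 1.61 at the 11p end (1.17 to 2.20), 1.52 at 19p (1.16 to 1.997), 1.44 at 16p (1.13 to 1.85), 1.39 at 9q (1.09 to 1.79) and 1.26 at 17q (0.997 to 1.59). The 8q value of 1.33 lay between those of 17q and 9q. Relative to these ends it was 0.826 to 1.05 times as high, and each interval of the 5 comparisons included 1. In this measure the 8q end was not distinguishable from the other ends at this precision.

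Width and pairing at 8q can be set beside those ends. Median width of distal 8q peaks went from 946 to 783 bp after DHT, and at 17q it was also lower, at 899.5 and 830 bp. After DHT the 8q median was below those of all 5 ends. The median was higher with DHT than without it at 19p (1067 and 1192 bp), 16p (908 and 1010.5 bp), 11p (793 and 907 bp) and 9q (816.5 and 846 bp). The share of pairs with a wider DHT peak, 59.3% at 8q, ran from 51.5% (41.9% to 60.9%) at 9q to 79.1% (69.3% to 86.3%) at 19p. The interval at 19p lay above that of 8q, and those at 9q, 11p, 16p and 17q overlapped it. Peaks of at least 4 kb went from 5 to 15 at 8q, from 3 to 14 at 19p, from 5 to 17 at 16p, from 5 to 14 at 17q, from 3 to 9 at 11p and from 6 to 9 at 9q.

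**Figure D5:**
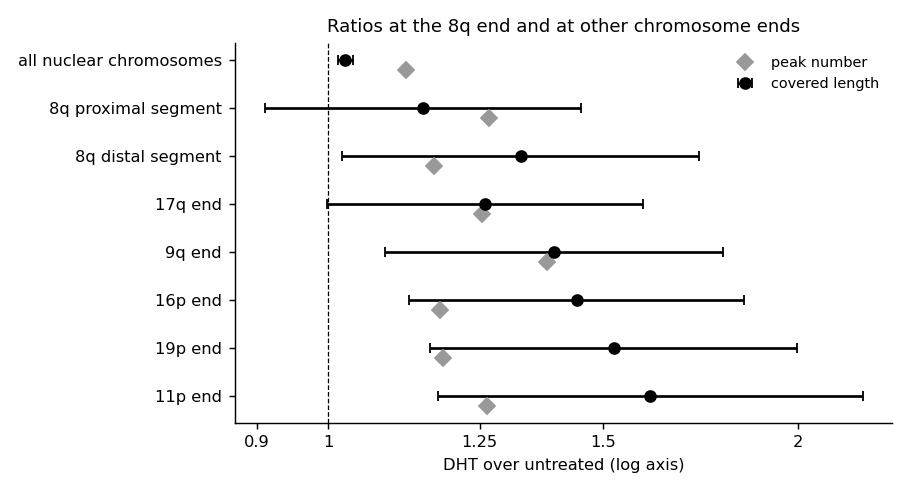
DHT over untreated ratio of covered length (black points, with 95% counting intervals as bars) and of peak number (grey diamonds) on a log axis, for all nuclear chromosomes, both 8q segments and 5 other chromosome ends. The 8q distal segment, at 1.33, lies among the other ends (1.26 to 1.61), and its interval overlaps theirs.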

How the data were processed

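Peak lists of H3K36me3 were analysed for untreated and DHT-treated LNCaP cells, 1 library each. The authors deposited 1 list of intervals for each library, each interval with a score. Per the names given to the peaks, the caller was MACS, and per the file names the build is hg19. Its version, settings and control were not given in the sources used here, nor were aligner and read depth. The depth behind a peak is thus unknown, and a list shows where a threshold was passed rather than the level of the mark. A caller for short peaks can divide a broad domain into several.

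Members and alternatives were chosen with earlier results of these data known. A peak belonged to the segment holding its midpoint, and covered length was clipped at the boundary. Overlap meant at least 1 bp. Intervals printed count from 1. Shares carry Wilson intervals. For ratios of covered length the sum of squared peak widths served as variance, and for peak numbers the Poisson variance. Genome windows ran from position 1 to the last peak of each nuclear chromosome. Named windows were those past 1.5-fold, the 5 most covered per library and those lacking peaks; named peaks were the 5 widest per library and those of at least 2 kb without a counterpart, with the 5 highest-scoring given at the end. Named blocks were the 5 longest and those past 2-fold. Other peaks are named as examples, chosen after their values were seen. Stretches of neighbouring windows, pairs, distances and other chromosome ends were also chosen after the values were seen. Values for gene bodies had been planned for an annotation of hg19 and were not computed. Interval functions matched base-by-base counts in 80 of 80 checks on simulated peaks, and 40 of 40 windows simulated with a 2-fold change were recovered. Those changes had no noise and were called at 1.5-fold with a lower minimum of mean covered length than used above. Their recovery was therefore fixed in advance and checks only that the calling code runs as written. Python 3.11.15, NumPy 2.4.6, SciPy 1.17.1 and Matplotlib 3.10.9 were used.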

Additional observations from a re-analysis of the deposited data

How the results depend on the processing

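In each segment the ratios of peak number and covered length stayed above 1 and within the interval of the main value under the 7 alternatives tried for each (the higher-scoring 50% of peaks, lists trimmed by score to equal coverage, gaps closed up to 1 kb or 5 kb, the boundary moved by 0.5 Mb either way, and each segment without its most different window). The distal covered length ratio ran from 1.22 to 1.48, and its interval reached 1 with peaks joined at 5 kb, the later boundary or that window left out. The distal over proximal ratio ran from 0.932 (peaks joined at 5 kb) to 1.19, each with an interval including 1. The 10 windows higher after DHT became 4 at 2-fold, where 2.77% of the genome's windows were higher, 22 of 58 with windows of 50 kb (13.6%) and 5 of 17 with windows of 200 kb (7.71%). With gaps closed up to 5 kb, 14 of 35 were higher, where 29.8% of the genome's windows were, a smaller excess than the 10 of 29 against 10.4% without joining. The windows lower, 0, became 5 with windows of 50 kb, 2 in the higher-scoring 50% and 4 with peaks joined at 5 kb. The genome's shares of lower windows were then 11.3%, 11.6% and 16.2%, and the cause was not tested. Requiring 50% of a peak to be covered lowered the overlapped shares to 59.3% of untreated and 48.4% of DHT peaks in the distal segment and to 43.7% of untreated peaks in the proximal. In the higher-scoring 50%, 76.2% of distal untreated peaks were overlapped. The other settings for these shares stayed within their intervals. No paired analysis was possible because each condition has 1 library. Depth is unknown, and with no replicate the spread between libraries of 1 condition cannot be set beside any ratio above.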

Other observations

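Some of the highest-scoring peaks of the band recurred in both libraries, and 1 such place held only narrow peaks. The top peak was at 146106822 to 146108161 in untreated cells (1340 bp, score 1037.27) and at 146106800 to 146108232 after DHT (1433 bp, score 977.72). In the proximal segment a peak of only 367 bp from 141414714 to 141415080 scored 568.32 in untreated cells, and its DHT counterpart of 423 bp from 141414724 scored 587.57. By width this pair ranked 305 of 420 and 275 of 514, while the other 4 of the 5 highest-scoring untreated peaks ranked 38 to 80, and the other 4 after DHT ranked 22 to 174. The remaining high scores in untreated cells were at 144731459 (1993 bp, 683.58), 146215215 (1427 bp, 680.85) and 145065793 (1615 bp, 596.29), and after DHT at 145065679 (3741 bp, 729.66), 144733664 (712 bp, 604.04) and 145648221 (3592 bp, 548.38). The untreated peak at 144731459 ended at 144733451, before the DHT peak at 144733664 began, although both ranked among the 5 highest in their lists. Both nevertheless met other peaks of the other library. DHT peaks covered 785 bp (39.4%) of the untreated one, and untreated peaks covered all 712 bp of the DHT one.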
